A study of Mus musculus with 10 samples.

Results

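Retinoic acid synthesis and response was followed through 9 genes in RNA-seq of mouse right atrium: Rbp4, Stra6, Crabp2, Dhrs3, Aldh1a1, Aldh1a2, Aldh1a3, Cyp26b1 and Rarb. They were chosen by symbol for their known place in the retinoid pathway, with earlier results of these data known. All 9 were present among the 23337 genes of the deposited table. Of the 9, 6 had enough reads to enter the test across genes, and Stra6, Crabp2 and Cyp26b1 did not.

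The right atria came from 10 mice, 4 labelled as controls and 6 labelled as Tbx5 mutants. In the latter, exon 3 of Tbx5, a T-box transcription factor of the atrium, was to be removed by a tamoxifen-inducible Cre recombinase under the R26 promoter, which is active in all cell types, so that removal was not limited to cardiomyocytes. The protocol gives 0.167 mg of tamoxifen a day for 3 days, with the tissue taken 1 week later. The strain is labelled mix for both groups, and the age is given as 8 to 10 weeks in one label and as 6 to 8 weeks in the protocol. The labels do not give the floxed Tbx5 allele, or say whether the mice labelled control carried the Cre or received tamoxifen. By label the groups held 2 males (M1, M2) and 2 females (F1, F2) as controls, and 3 females (F1 to F3) and 3 males (M1 to M3) as mutants.

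Each library held between 5703775 and 7095141 reads counted in genes, so that 3 reads, the smallest count taken as detectable, stood for 0.40 to 0.817 CPM (counts per 1000000 counts of the scaled library). Tbx5 itself was higher in the mice labelled mutant, at 394 ± 83.3 CPM (SD, n = 6) against 205 ± 17.8 CPM (SD, n = 4), with an edgeR log2 fold change of 0.94 ± 0.15 (SE) and an adjusted p of 0.000495. Reads summed over the gene do not show whether exon 3 was present, and the direction goes against a loss of the transcript, so the groups are named by their labels throughout. The mice labelled control M1 and M2 had 10149 and 7850 reads of Xist, a transcript of females, and 0 reads of the Y-linked gene Ddx3y, and those labelled control F1 and F2 had 5 and 14 reads of Xist and 1319 and 1124 reads of Ddx3y, against their sex labels. In the library of mutant M3, 38.9% of reads fell on the ribosomal RNA precursor Rn45s, compared with 0.268% to 1.49% in the other 9. The values of Aldh1a1, Aldh1a3 and Cyp26b1 are also given without that library.

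Retinol travels in blood bound to retinol-binding protein and enters cells partly through the receptor STRA6. Retinol dehydrogenases oxidise it reversibly to retinaldehyde, and the retinaldehyde dehydrogenases of the ALDH1A family convert this irreversibly to retinoic acid, which enters the nucleus, binds retinoic acid receptors paired with retinoid X receptors and switches on their target genes. CYP26 enzymes break retinoic acid down. In the embryonic heart, retinoic acid from ALDH1A2 is known to set the extent of the atrial and inflow region, and in the adult heart the epicardium and fibroblasts are known sources of these enzymes.

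The promoter sequences of Rarb and Aldh1a1 are shown because Rarb is the textbook target of retinoic acid and Aldh1a1 was the most abundant member that differed between the groups. RefSeq (GRCm38.p6) gave promoters for 7 of the 9 genes, 14 windows in all, each printed here as the 250 bases before a transcript start, 5′ to 3′ on the strand of the gene. Aldh1a3 and Crabp2 were not among them. Capitals mark matches to a retinoic acid response element or to the T-box letters. The response element was searched on both strands as a direct repeat of any of AGGTCA or AGTTCA or GGGTCA or GGTTCA with 5 or 2 bases between them, and the T-box as AGGTGTGA or its core AGGTGT, which lies within it.
Rarb, reverse strand, chr14:16575477-16575726: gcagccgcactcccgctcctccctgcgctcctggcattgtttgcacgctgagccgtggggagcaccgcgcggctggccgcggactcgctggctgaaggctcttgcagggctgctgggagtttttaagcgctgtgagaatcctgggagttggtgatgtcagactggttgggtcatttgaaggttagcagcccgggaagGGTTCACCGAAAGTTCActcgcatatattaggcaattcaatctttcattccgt
Aldh1a1, forward strand, chr19:20492333-20492582: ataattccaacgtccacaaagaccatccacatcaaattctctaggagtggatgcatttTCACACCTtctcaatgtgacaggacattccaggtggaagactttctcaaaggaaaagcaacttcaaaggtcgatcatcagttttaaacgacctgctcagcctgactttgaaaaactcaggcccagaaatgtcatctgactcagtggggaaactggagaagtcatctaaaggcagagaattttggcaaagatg
Aldh1a1, forward strand, chr19:20601718-20601967: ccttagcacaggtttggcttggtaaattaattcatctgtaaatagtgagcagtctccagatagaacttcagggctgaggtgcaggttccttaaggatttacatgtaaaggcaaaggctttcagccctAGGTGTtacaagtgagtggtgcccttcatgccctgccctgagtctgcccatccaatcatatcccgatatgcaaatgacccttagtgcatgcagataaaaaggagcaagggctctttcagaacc

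The Rarb window held the direct repeat with 5 bases between its parts, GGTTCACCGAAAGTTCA, from base -53 to -37 before the start, and 0.0974% of the 32851 RefSeq promoter windows, each of 250 bases before and 50 after a start, held such a repeat. The first Aldh1a1 window held AGGTGTGA on the other strand from -192 to -185, letters found in 1.28% of windows, and the second held the core AGGTGT from -123 to -118, letters found in 13.7% of windows. Among the other members, Aldh1a2 held the core on the other strand from -12 to -7 and 1 of the 4 Stra6 windows held it from -176 to -171. The windows of Rbp4, Dhrs3 and Cyp26b1 held none of these letters. These are matches of letters in the reference genome, and no binding was measured in these libraries.

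The retinaldehyde dehydrogenases Aldh1a1 and Aldh1a3 were the members that rose in the mice labelled mutant, by 1.61-fold and 2.32-fold, while Aldh1a2, the third enzyme of the family, did not pass the test. Of the 6 members tested, 2 were called higher and 0 lower, where a call required an adjusted p under 0.05, a fold change over 1.5 and a mean normalised signal over 1 in the mice labelled control. Over all 13084 genes tested, 8.5% were called higher, 7.16% lower and 15.7% in either direction. The members were chosen with earlier results of these data known, so these shares stand as a description and not as a test. Of these 6 members, 0 were lower at an unadjusted p under 0.05 in edgeR. Cyp26b1 had too few reads for that fit, and was called lower by DESeq2 and by edgeR without a filter on low counts. The median log2 fold change was -0.03 over the 6 members, 3 of them positive and 3 negative, and -0.00495 over all genes tested. The atrium was sequenced whole, so fewer cells of a type and less RNA per cell cannot be told apart for any gene.

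**Figure D1:**
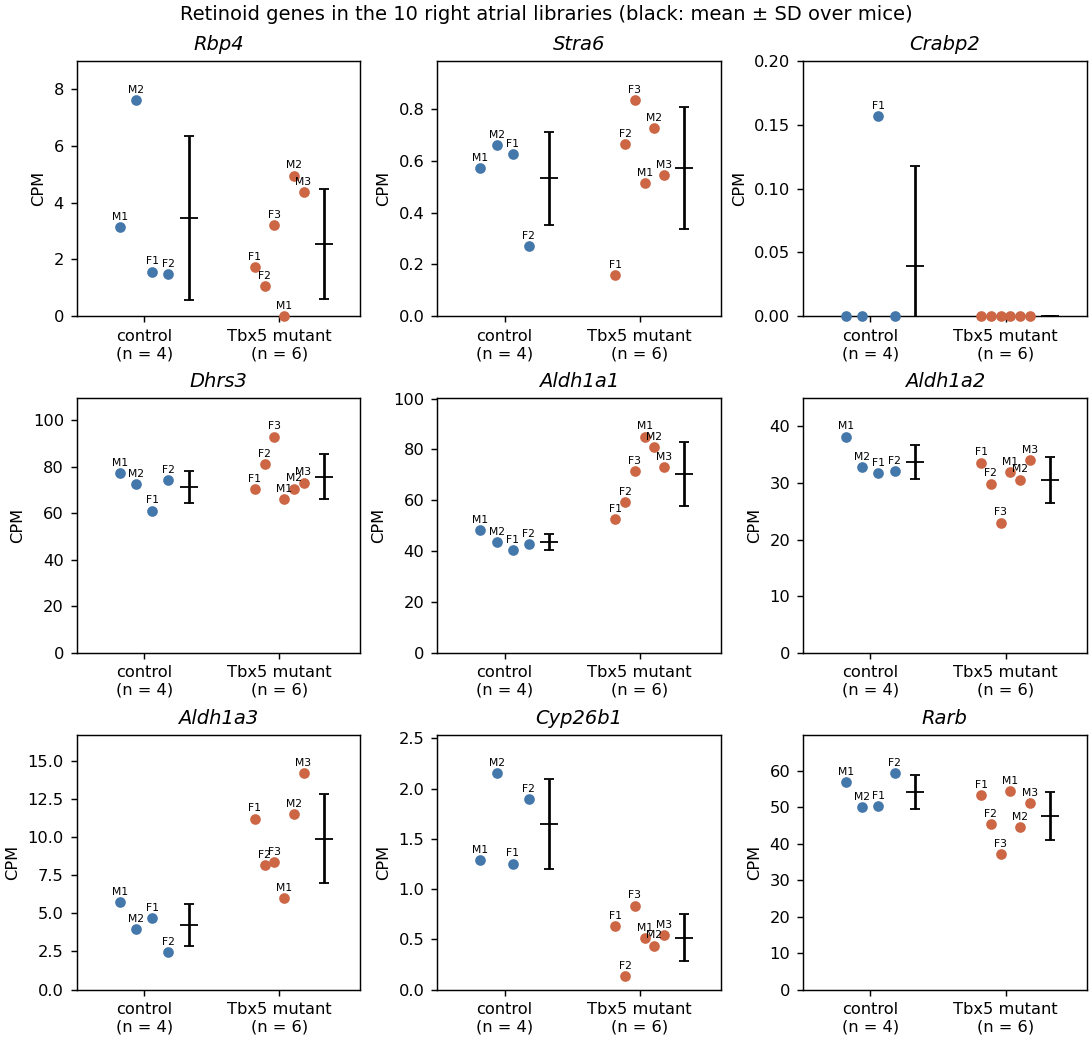
Level of each of the 9 genes in each mouse, in CPM on a linear axis from 0 that differs between panels, with points named by the labelled sex and number, and black bars for the mean ± SD of the 4 mice labelled control and the 6 labelled Tbx5 mutant. Every mouse labelled mutant lies above every mouse labelled control for Aldh1a1 and Aldh1a3 and below for Cyp26b1, and the groups overlap in the other 6 panels; most points at 0 are left unnamed.

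Delivery and binding of retinol were represented by Rbp4, Stra6 and Crabp2, which had few reads in this tissue. Rbp4, the blood carrier of retinol made mainly by liver and fat, stood at 3.14, 7.61, 1.57 and 1.49 CPM in control M1, M2, F1 and F2, and between 0 and 4.95 CPM with a median of 2.47 CPM in the mice labelled mutant. The groups overlapped, and control M2, with 46 reads, was higher than any other mouse. The log2 fold change was -0.44 ± 0.62 (SE; edgeR adjusted p = 0.614), and it became 0.27 without control M2, so that no direction could be given.

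Markers of fat varied between the same mice. Adipoq, which encodes the fat hormone adiponectin, was at 1.49 CPM in control M2 and at 9.03 CPM in mutant M2, where Rbp4 was at 4.95 CPM. In mutant M3, which had the next highest Rbp4 level at 4.36 CPM, the fat genes Adipoq, Plin1 and Cidec were all at 0. Lep was at 0 in 9 of the 10 libraries. The summed level of the 8 adipocyte markers was 471 to 588 CPM among mice labelled control and 454 to 628 CPM among those labelled mutant, and 1 of the 2 markers tested was called higher. Nearly all of that sum came from markers other than Adipoq, Plin1, Cidec and Lep. It was still 454 CPM in mutant M3, where these were all at 0, so the sum does not follow them. Liver markers summed to 0.171 to 0.827 CPM in any mouse.

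Stra6, the membrane receptor for retinol-binding protein, had 4, 4, 4 and 2 reads in control M1, M2, F1 and F2 and 1 to 6 reads in the mice labelled mutant. Its mean levels of 0.533 ± 0.179 CPM (SD, n = 4) and 0.575 ± 0.236 CPM (SD, n = 6) overlapped, and p was 0.781 by an exact permutation test (two-sided, 210 splits of the mice). Crabp2, which hands retinoic acid to its nuclear receptors, had 1 read in all, in control F1, and 0 in the other 9 libraries. A difference in either gene was not detectable at this depth.

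Dhrs3 reduces retinaldehyde back to retinol and is itself a known target of retinoic acid. It was at 77.2, 72.6, 61.1 and 74.2 CPM in control M1, M2, F1 and F2, and between 66.2 and 93.0 CPM with a median of 71.9 CPM in the mice labelled mutant. The groups overlapped, with 2 of the 6 mice labelled mutant (F2 and F3) above all those labelled control. The log2 fold change of 0.09 ± 0.11 (SE; edgeR adjusted p = 0.553) did not pass the test.

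Aldh1a1, a retinaldehyde dehydrogenase of many adult tissues, stood at 48.2, 43.5, 40.4 and 42.6 CPM in control M1, M2, F1 and F2. In the mice labelled mutant it was at 52.5, 59.3 and 71.6 CPM in F1, F2 and F3 and at 85.0, 80.8 and 73.0 CPM in M1, M2 and M3. All 6 exceeded the highest of the other group, a separation in this direction shown by 11.7% of genes tested. The means were 43.7 ± 3.24 CPM (SD, n = 4) and 70.4 ± 12.4 CPM (SD, n = 6), and the log2 fold change was 0.69 ± 0.13 (SE; edgeR adjusted p = 0.00144). It was 0.68 without mutant M3. The fold lay close to the threshold of 1.5: once the dependence of each library on transcript length was taken out, the log2 fold change was 0.58 (adjusted p = 0.00434), and in the mice labelled female it was 0.56 (adjusted p = 0.0213), both under that fold, and among females with the sex labels of the mice labelled control exchanged it did not pass (0.42, adjusted p = 0.0714). Of the 50-base windows of the longest Aldh1a1 transcript, 6.54% were shared with its neighbour and close relative Aldh1a7, which itself had 0 to 6 reads in any library.

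Aldh1a3, the enzyme of the family best known from embryonic eye and nasal tissue, rose from a low level. It was at 5.72, 3.97, 4.70 and 2.44 CPM in control M1, M2, F1 and F2, which is 18 to 40 reads. In the mice labelled mutant it reached 11.2, 8.13 and 8.36 CPM in F1, F2 and F3 and 6.00, 11.5 and 14.2 CPM in M1, M2 and M3, which is 35 to 79 reads. Again all 6 lay above the highest mouse labelled control, mutant M1 by the smallest margin. The means were 4.21 ± 1.38 CPM (SD, n = 4) and 9.89 ± 2.94 CPM (SD, n = 6), with a log2 fold change of 1.21 ± 0.26 (SE; edgeR adjusted p = 0.00354). Without mutant M3, the mouse with the highest level, it was 1.11 (adjusted p = 0.007).

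Aldh1a2, the main retinaldehyde dehydrogenase of the embryo and of the epicardium, was at 38.1, 32.8, 31.7 and 32.1 CPM in control M1, M2, F1 and F2. The mice labelled mutant ranged from 23.0 to 34.0 CPM with a median of 31.2 CPM. The groups overlapped, with 3 of the 6 mice labelled mutant below all those labelled control and F3 the lowest. The log2 fold change of -0.15 ± 0.11 (SE; edgeR adjusted p = 0.339) did not pass the test. Of the epicardial and mesothelial markers, 12 were tested and 0 were called in either direction, with a summed level of 549 to 600 CPM among mice labelled control and 390 to 718 CPM in those labelled mutant. At an adjusted p under 0.05 without a fold threshold in edgeR, which 16.3% of all genes tested passed as higher and 15.0% as lower, the count was also 0. At an unadjusted p under 0.05 it was 2 higher and 0 lower, and DESeq2 called 0.

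**Figure D2:**
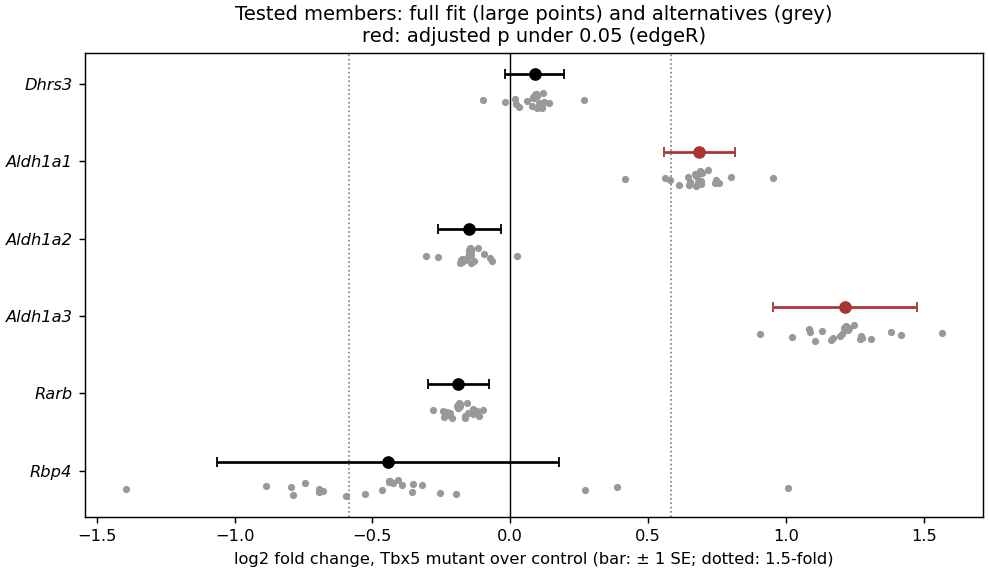
Log2 fold change of the 6 members tested, mice labelled Tbx5 mutant over mice labelled control, with large points and bars for the value ± 1 SE from all 10 libraries (red: adjusted p under 0.05), grey points for the other settings and left-out libraries, and dotted lines at a 1.5-fold change. Aldh1a1 at 0.69 and Aldh1a3 at 1.21 stay right of 0 under every setting drawn, and the points of Aldh1a2, Rbp4 and Dhrs3 fall on both sides of 0.

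Divided by transcript length, so that levels can be set against each other between genes, the 3 retinaldehyde dehydrogenases summed to 34.6 ± 2.95 CPM per kb (SD, n = 4) among mice labelled control and 46.2 ± 5.41 CPM per kb (SD, n = 6) in those labelled mutant. The ranges, 32.5 to 38.9 and 40.4 to 51.9 CPM per kb, did not overlap. Aldh1a1 made up 52.5% to 54.9% of that sum among mice labelled control and 55.2% to 70.7% in those labelled mutant. Aldh1a2 made up 42.5% to 43.3% and 23.6% to 36.8%, so the level of Aldh1a1 was 1.21 to 1.28 times that of Aldh1a2 in each mouse labelled control and 1.5 to 2.99 times in each labelled mutant. The share of Aldh1a3 was 2.15% to 4.26% and 3.36% to 8.21%, with overlap. These sums and shares are given as a description of the same libraries and were not tested.

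**Figure D3:**
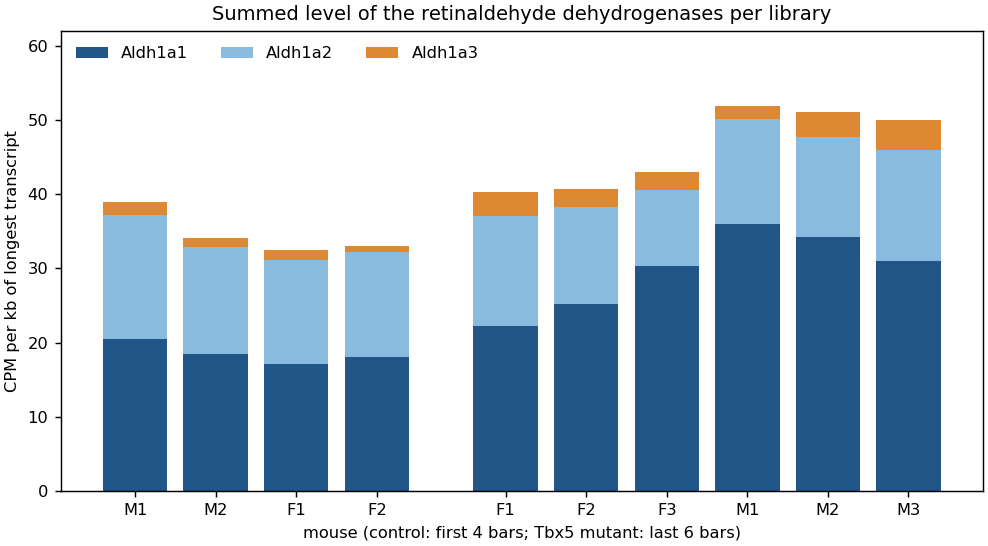
Summed level of Aldh1a1, Aldh1a2 and Aldh1a3 in each mouse, in CPM per kb of the longest transcript on an axis from 0, 1 bar per mouse with the share of each gene in its own shade; the first 4 bars are the mice labelled control and the last 6 those labelled Tbx5 mutant. The dark part, Aldh1a1, grows from between 17.2 and 20.4 among mice labelled control to between 22.3 and 36.1 in those labelled mutant, while the Aldh1a2 parts overlap.

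Cyp26b1 encodes an enzyme that clears retinoic acid. It had 9, 13, 8 and 14 reads in control M1, M2, F1 and F2, or 1.29, 2.15, 1.25 and 1.89 CPM. The mice labelled mutant had 4, 1 and 6 reads in F1, F2 and F3 and 3, 3 and 2 reads in M1, M2 and M3, or 0.133 to 0.836 CPM. Every mouse labelled mutant lay below every mouse labelled control, as in 4.86% of the 1953 low genes left out of the fit that had at least 20 reads in all. The means were 1.65 ± 0.447 CPM (SD, n = 4) and 0.516 ± 0.232 CPM (SD, n = 6), and a two-sided exact permutation test gave p = 0.00952, the smallest that 210 splits allow. This p was not adjusted for the 3 members tested in this way. In an edgeR fit without a filter on low counts, in which 5.65% of genes were called lower, the log2 fold change was -1.65 ± 0.40 (SE; adjusted p = 0.00665), and DESeq2 gave -1.68 ± 0.52 (SE; adjusted p = 0.00765). Without mutant M3 the difference of the means was -1.14 CPM. The counts of the mice labelled mutant lie around the floor of 3 reads, so the size of the difference is imprecise.

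Rarb encodes retinoic acid receptor beta, whose promoter with its response element is printed above. Its level was 57.0, 50.0, 50.3 and 59.3 CPM in control M1, M2, F1 and F2, and between 37.2 and 54.3 CPM with a median of 48.2 CPM in the mice labelled mutant. The groups overlapped, with 3 of the 6 mice labelled mutant below the lowest mouse labelled control and F3 the lowest, as for Aldh1a2. The log2 fold change of -0.19 ± 0.11 (SE; edgeR adjusted p = 0.212) did not pass the test. Rarb overlaps Top2b, which encodes a DNA topoisomerase, on the other strand, and 54.1% of the 50-base windows of its longest transcript were shared with it. Whether the counting used the strand is not given, so it is not known whether reads of the pair were told apart there. Top2b had a log2 fold change of -0.13 (adjusted p = 0.636).

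Levels per kb placed the members in a similar order in both groups. In the mice labelled control, Dhrs3 was highest at 30.5 CPM per kb and its range lay apart from that of Aldh1a1 at 18.5, while Aldh1a1 and Rarb (17.4) overlapped, as did Rarb and Aldh1a2 (14.9). Rbp4 (2.97) and Aldh1a3 (1.22) followed with overlapping ranges, and then Cyp26b1 (0.366), Stra6 (0.173) and Crabp2 (0.0421). In the mice labelled mutant, Aldh1a1 at 29.8 CPM per kb overlapped with Dhrs3 at 32.4 and lay apart from Rarb at 15.3. Cyp26b1, at 0.115 CPM per kb, came after Stra6 at 0.187, with overlapping ranges. The place of Rarb is uncertain in both groups: 54.1% of its 50-base windows were shared with Top2b, and the strand setting of counting is not given.

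The genes lie on 7 chromosomes of GRCm38. In GENCODE M21, Aldh1a1 lies on chromosome 19 from 20492715 to 20643465 on the forward strand, Aldh1a3 on chromosome 7 from 66390890 to 66427517 on the reverse strand, Cyp26b1 on chromosome 6 from 84571414 to 84593908 on the reverse strand and Rarb on chromosome 14 from 16430839 to 16819156 on the reverse strand. All 9 are annotated as protein-coding genes, and Rarb was the only one of the 9 with exons that overlap those of another gene.

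Both groups held both labelled sexes. In the mice labelled mutant, Aldh1a1 was at 73.0 to 85.0 CPM in the 3 males and at 52.5 to 71.6 CPM in the 3 females, and in the mice labelled control it was at 43.5 to 48.2 CPM and 40.4 to 42.6 CPM. By their Xist and Ddx3y reads, the mice labelled control do not match these labels, so each contrast by label sets mice labelled mutant against mice labelled control whose reads are of the other sex. By label, the log2 fold change of Aldh1a1 was 0.80 ± 0.14 (SE; edgeR adjusted p = 0.0126) among males and 0.56 ± 0.14 (SE; adjusted p = 0.0213) among females. With the sex labels of the mice labelled control exchanged, it was 0.95 ± 0.14 (SE; edgeR adjusted p = 0.00439) among males and 0.42 ± 0.14 (SE; adjusted p = 0.0714) among females, so that Aldh1a1 did not pass the test there. By label, Aldh1a3 had a log2 fold change of 1.09 ± 0.38 (SE; edgeR adjusted p = 0.0942) among mice labelled male and 1.38 ± 0.30 (SE; adjusted p = 0.00953) among those labelled female. With the labels exchanged it was 1.57 ± 0.43 (SE; edgeR adjusted p = 0.0438) and 0.91 ± 0.25 (SE; adjusted p = 0.0314), called in both. The interaction of genotype and labelled sex was called for 0 of the 6 members, with the lowest adjusted p of 0.539 for Dhrs3, and for 0.29% of all genes tested. With the sex labels of the mice labelled control exchanged, it was again 0 of 6, with the lowest adjusted p of 0.463 for Aldh1a1, and 0.00764% of all genes. In edgeR, 0 members had an unadjusted p under 0.05 with the labels as given and 1, Aldh1a1, had one with the labels exchanged.

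Of 84 other retinoid genes listed by role, 81 were in the table and 55 were tested. Of these, 4 were called higher and 3 lower, against 15.7% of all genes called in either direction, and the median log2 fold change was -0.18. Among genes of uptake and binding, 3 of 9 were called higher and 0 lower, with a median of 0.08. Lpl, a lipase that releases fatty acids and retinyl esters from lipoproteins, rose from 1538 ± 316 to 2504 ± 102 CPM, a log2 fold change of 0.70 (edgeR adjusted p = 0.00156). The groups did not overlap, a separation in this direction shown by 11.7% of genes tested. Fabp5, which carries fatty acids and can carry retinoic acid, rose by 1.10 on the log2 scale (adjusted p = 0.016), with overlap between the groups. Its adjusted p was 0.0555 without control F1 and 0.0511 without control F2, and 0.606 among females with the control sex labels exchanged.

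Storage and oxidation of retinol gave 0 calls of 16 genes tested in either direction, where 15.7% of all genes tested were called. The median log2 fold change was 0.16. At an adjusted p under 0.05 in edgeR without the fold threshold, 1 gene was higher and 1 lower. Over all genes tested, those shares were 16.3% and 15.0%. At an unadjusted p under 0.05, 3 were higher and 5 lower, and DESeq2 called 0. The share of all genes at that unadjusted threshold was not counted, so these 2 counts cannot be set against it. Rdh10, the main retinol dehydrogenase of the embryo, was at 7.71 ± 0.518 CPM (SD, n = 4) and 9.44 ± 1.29 CPM (SD, n = 6). Its log2 fold change of 0.29 ± 0.14 (SE; edgeR adjusted p = 0.13) did not pass the test. Of the enzymes of degradation other than Cyp26b1, 2 of 4 were tested and 0 were called, by DESeq2 or edgeR, also at an unadjusted p under 0.05 without a fold threshold.

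Of the receptors and cofactors, 14 were tested, 0 were called higher and 1 lower, with 12 of 14 below 0 and a median log2 fold change of -0.33. At an adjusted p under 0.05 without the fold threshold, 7 were lower and 0 higher, where 15.0% of all genes tested were lower and 16.3% higher. The receptors themselves did not pass the test: the log2 fold change was 0.04 for Rara (edgeR adjusted p = 0.801), -0.29 for Rarg (0.0942), -0.12 for Rxra (0.453), 0.05 for Rxrb (0.776) and -0.18 for Rxrg (0.44).

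Of the genes listed as responsive to retinoic acid, 14 were tested, 1 was called higher and 2 lower, with a median log2 fold change of -0.21. Over all genes tested, 8.5% were called higher and 7.16% lower. Tgm2, the tissue transglutaminase, rose from 399 ± 40.6 to 817 ± 149 CPM, a log2 fold change of 1.03 ± 0.14 (SE; edgeR adjusted p = 0.000119). The groups did not overlap, a separation in this direction shown by 11.7% of genes tested. Rarres1, a membrane protein induced by retinoids in other cells, fell by 1.31 on the log2 scale (adjusted p = 0.00762) from a level of 2.93 CPM, with overlap. Mutant M2 was at 2.33 CPM with 16 reads, and the other mice labelled mutant were at 0.789 to 1.12 CPM. These levels are close to the floor of 0.40 to 0.817 CPM, so the size of the fall is imprecise. With a prior count of 5 the log2 fold change was -0.93.

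**Figure D4:**
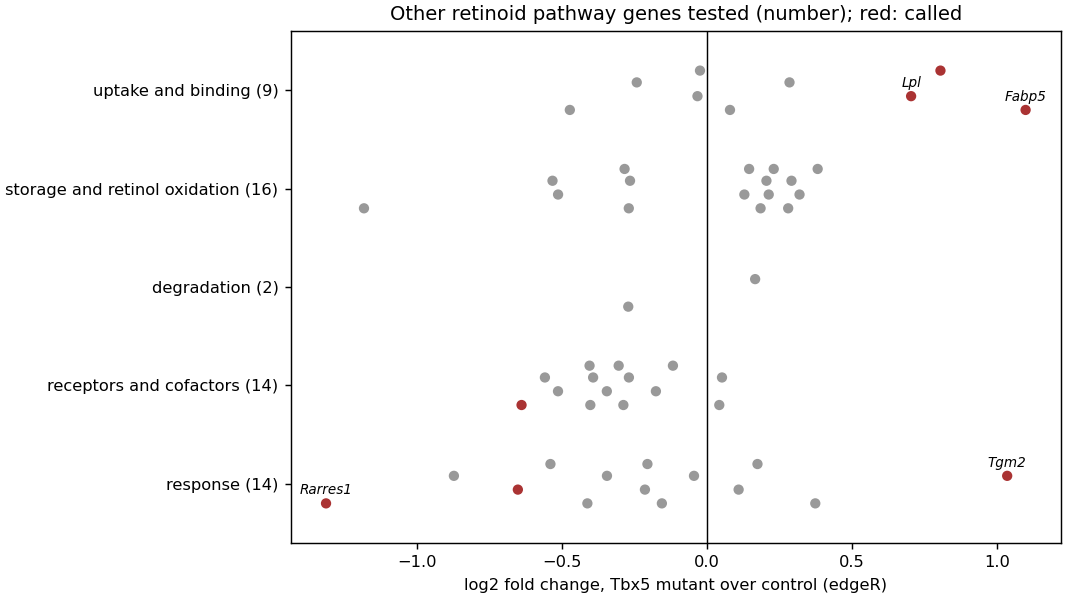
Log2 fold change, mice labelled Tbx5 mutant over mice labelled control, of the 55 other retinoid genes tested, 1 point a gene in rows by role with the number tested, and called genes in red, 4 of them named; the height of a point within a row has no meaning. Of the receptors and cofactors 12 of 14 lie left of 0, and the 7 called genes lie on both sides.

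Markers of other cell types moved between the groups too, and their part in the values of the retinoid genes was not tested. Their counts stand beside 8.5% of all genes tested called higher and 7.16% called lower. Of 10 fibroblast markers, 4 were called higher and 0 lower, with a summed level of 4101 to 5540 CPM among mice labelled control and 6644 to 10074 CPM in those labelled mutant. At an adjusted p under 0.05 in edgeR without the fold threshold, 4 were higher and 1 lower. Over all genes tested, those shares were 16.3% and 15.0%. Col1a1, a collagen, had a log2 fold change of 1.31 (edgeR adjusted p = 0.000502), and over the 10 markers 7 were positive and the median was 0.51. All 4 leukocyte markers tested were called higher, Ptprc, a marker of all leukocytes, by 0.84 on the log2 scale (adjusted p = 0.000788) and Csf1r and Cd68, of macrophages, by 0.60 (adjusted p = 0.00582) and 1.00 (adjusted p = 0.00321). The leukocyte list summed to 131 to 192 CPM and 212 to 301 CPM in the groups, without overlap. Of 7 smooth muscle and pericyte markers 2 were called higher, Acta2 by 1.98 (adjusted p = 0.000339) and Tagln by 2.01 (adjusted p = 0.000378), with sums of 299 to 362 CPM and 379 to 846 CPM.

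Of 9 cardiomyocyte markers 2 were called higher and 2 lower, among them Myl7, the atrial myosin light chain, with a log2 fold change of -2.73 (edgeR adjusted p = 9.36e-08), and Tnnt2 and Actc1, of the thin filament, at 1.12 (adjusted p = 0.000872) and 0.90 (adjusted p = 0.000533). The cardiomyocyte list summed to 140503 to 191186 CPM among mice labelled control and 88948 to 159964 CPM in those labelled mutant, and each of its 9 markers had reads, as the labelled tissue would have. Of 7 endothelial markers 0 were called by edgeR or DESeq2, with 1 higher and 0 lower at an adjusted p under 0.05 alone and 1 higher and 1 lower at an unadjusted p under 0.05. Of 3 Schwann cell markers tested 1 was called lower. Over all marker lists, 13 of 54 genes tested were called higher and 3 lower, against the same 8.5% and 7.16% of all genes.

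The 3 genes whose log2 CPM followed that of Aldh1a3 most closely over the 10 libraries, by the root mean square difference after centring, were Procr, which encodes the endothelial protein C receptor (0.225), Aim2, a sensor of cytosolic DNA (0.247), and Igtp, an interferon-inducible GTPase (0.276). Procr was at 7.01 ± 2.43 CPM among mice labelled control and 14.4 ± 3.77 CPM in those labelled mutant. The measure depends on the level and the size of the change as well as on the pattern, and says nothing of a shared function.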

How the data were processed

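RNA-seq of right atrium from 10 mice was analysed, grouped by the genotype labels. The authors deposited 1 table with counts of reads per gene and library, and a signal made from those counts with 1 size factor per library. The submitters' processing notes name FastQC, TopHat2 2.0.11, featureCounts, DESeq2 and the build mm10, while the gene annotation and the strand setting of counting are not given in the sources used here. The labels name both poly(A) and ribosomal depletion kits. The deposited table also holds the authors' own comparison (log2 fold changes with errors, a Wald score, p-values and a fold change as a ratio), which was not used. Each per-library column was matched to 1 of the 10 samples.

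The counts were tested in edgeR 4.0.16 (R 4.3.3): filterByExpr with a minimum count of 10, TMM scaling, a prior count of 0.125 and the quasi-likelihood test with no covariate on the 10 libraries, with Benjamini-Hochberg adjustment over 13084 genes. A gene was called at an adjusted p under 0.05, a fold change over 1.5 and a mean of the deposited signal over 1 in the mice labelled control, thresholds the study states. Shares of all genes were counted for calls and for adjusted p, and not for an unadjusted p. The SE is the size of the log2 fold change divided by the root of the F statistic. Members outside the fit were compared by the exact permutation test. CPM per kb uses the longest GENCODE M21 transcript. On simulated counts with 200 of 12965 genes changed 2-fold, the fit recovered 180 and made 5 other calls. The changed genes were drawn only from those above a minimum mean count, so this recovery does not carry over to smaller folds or to genes with few reads. Reads carry no molecular identifiers, so floors cover counting error only. The labels do not say whether litters were shared, so p-values measure the spread between these samples. Over 21 pairs of libraries of the same group, the lowest chi-square per degree of freedom was 3.94, so none was taken as a repeat of another.

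The members and lists were chosen with earlier results of these data known. Named were all members, Tbx5, Aldh1a7, called genes of the retinoid lists (of the 7, 3 are counted but not reported here by name), the receptors and Rdh10, called genes among the first 4 of each marker list, and the 3 genes most like the member with the largest rise. Other genes named (Adipoq, Plin1, Cidec, Lep, Top2b, Xist, Ddx3y and Rn45s) were chosen after their values were seen. In the edgeR fit with the filter no member was called lower, so no genes were sought by likeness to a fall. Alternatives were other scalings, filters, prior counts and thresholds, DESeq2 1.42.0, limma 3.58.1, sex as a covariate, each sex alone, a replicate block, a removed length trend and each library left out. The males and the females were each fitted alone also with the control sex labels exchanged, an alternative added after the data were seen.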

Additional observations from a re-analysis of the deposited data

Results flagged for a closer look

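In 2 of 32 groups of mice examined for a single outlying value, 1 mouse stood apart by Dixon's criterion, where chance gives about 1.6. Aldh1a2 in control M1 was at 38.1 CPM, with 267 reads, and the nearest mouse labelled control was at 32.8 CPM. Rarres1 in mutant M2 was at 2.33 CPM, and the nearest mouse labelled mutant was at 1.12 CPM.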

How the results depend on the processing

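The 2 members called, Aldh1a1 and Aldh1a3, kept a positive log2 fold change under every alternative run, from 0.42 to 0.95 for Aldh1a1 over 26 alternatives and from 0.91 to 1.57 for Aldh1a3 over 25. The number of members called was 2 without each library in turn and under the replicate block, and 3, with Cyp26b1, without a filter on low counts and with DESeq2. It was 1 with a mean count of at least 50, which leaves out Aldh1a3, among mice labelled male (Aldh1a3 at an adjusted p of 0.0942), among mice labelled female and with the length trend removed (Aldh1a1 under the fold of 1.5 in both), and with a fold change over 2. With the control sex labels exchanged, an alternative added after the data were seen, it was 2 among males and 1 among females (Aldh1a1 at an adjusted p of 0.0714). Genes called over the whole table were 1284 with a mean count of at least 50, 906 with a fold change over 2, 4096 with no fold threshold, and 1807 to 2205 without each library, against 2049. Under the replicate block 1957 genes were called, Aldh1a1 had a log2 fold change of 0.64 and Aldh1a3 of 1.13 (edgeR adjusted p = 0.0141). No pairing by number was seen: 4 pairs of the same label had a mean correlation of deviations of -0.00712, against 0.00129 for 20 other pairs. The other pairs ranged from -0.286 to 0.276. With 4 pairs, and control labels that go against their sex-linked reads, the check cannot exclude a pairing. Sign changed for members that did not pass the test: Rbp4 was at 0.39 among mice labelled female, at 1.01 among males with the labels exchanged and between -0.79 and 0.27 without each library (0.27 without control M2), Aldh1a2 at 0.023 among males with the labels exchanged, Dhrs3 at -0.097 among mice labelled male and -0.019 with the length trend removed, and the difference of mean CPM of Stra6 lay between -0.046 and 0.13 without each library. That of Cyp26b1 lay between -1.26 and -0.962 CPM, with an exact permutation p of 0.0159 to 0.0238, the smallest those splits allow. Among other retinoid genes, the adjusted p missed 0.05 among mice labelled male for Lpl (0.136) and Rarres1 (0.414), and with the labels exchanged for Rarres1 among males (0.104) and Fabp5 among females (0.606). Tbx5 was at an adjusted p of 0.0549 among mice labelled male. The cause of these changes was not tested. Calls among the retinoid lists numbered 6 to 8 and among the marker lists 14 to 16 over 3 alternatives, against 7 and 16. Depth limited Stra6, Crabp2 and Cyp26b1, with at most 14 reads in any library.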
